A study of Mus musculus with 29 samples.

Results

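The genes described here carry the transport and sealing functions of the blood-brain barrier: 6 carriers and efflux pumps (Slco1a4, Slc2a1, Slc7a5, Mfsd2a, Abcb1a and Abcg2), 2 tight junction genes (Cldn5 and Ocln) and Plvap, a gene of leaky vessels. They were chosen by name, as the rows with these symbols in each count file, and all 9 were found among 24499 symbols and passed the filter on low counts. RNA of the hypothalamus was sequenced in C57BL/6 wild-type mice at 9 ages, with 1 library per mouse. Of the 28 libraries used, 3 were of pups on day 5 after birth (P5), 3 of mice aged 3 weeks, 4 of 4 weeks and 4 of 5 weeks. The adults gave 3 libraries for each of the ages 2, 6, 12 and 18 months and 2 for 24 months. Per the labels, all mice were male, lived alone under equal periods of light and dark with free access to food, and received no treatment, and tissue was taken near zeitgeber time 6, the middle of the light period. The samples differ by age, so the question is how the RNA of barrier genes changes from the first postnatal week to old age.

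The endothelial cells of brain capillaries are joined by tight junctions and hold few transport vesicles, so that nutrients cross on carriers and many drugs and toxins are pumped back into blood. Wnt ligands from neural cells, acting through Fzd4 and related receptors on the endothelium, induce and keep this state. In the hypothalamus most capillaries have a barrier, while those of the median eminence are fenestrated and hold Plvap. Whole tissue was sequenced, so fewer endothelial cells and less RNA per endothelial cell cannot be told apart in any value below.

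A library held 24661631 to 39783779 gene counts, and levels are given as CPM, gene counts scaled to a common library size with the TMM method of edgeR. At this depth 3 counts made 0.075 to 0.122 CPM, far below each member in each library. Another 24-month library was partial and was left out. Of the 3 P5 libraries, 2 (replicates 1 and 2) held Xist at up to 791 CPM and no Ddx3y counts, although labelled male. The tissue label was checked with Avp and Oxt, peptides of hypothalamic neurons: Avp was at 74.7 CPM or more in each library outside 2 months and at 11.1 to 57.0 CPM at 2 months. Oxt was at 3.41 to 22.3 CPM at 2 months, 13.3 to 17.6 CPM at P5 and 70.1 CPM or more at the other ages. Rn7s2, a small cytoplasmic RNA, separated a set of libraries at 4 weeks (replicates 3 and 4) and 5 weeks (all 4), at 24.2 to 29.6 CPM, from those of 3 weeks and the other 2 at 4 weeks, at 1.44 to 2.11 CPM. The 24-month libraries held it at 59.0 and 59.97 CPM. The labels name no batch. For the members, comparisons with 5 weeks are also given with a term for the set, and tests over ages and the adult trend also without 24 months. Only 4 weeks holds libraries of both sets, so that term, and each value given with it, rests on 4-week replicates 3 and 4 against the other 2.

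Compared per kilobase of exon, which allows levels of different genes to be set side by side, Cldn5 had the highest mean level at P5 (45.2 CPM per kb), followed by Slc7a5 (39.6) and Slc2a1 (15.8). At 2 months the order was Cldn5 (47.0 CPM per kb), Slc2a1 (46.5), Slc7a5 (19.4), Mfsd2a (11.5), Slco1a4 (10.1), Abcb1a (9.86), Plvap (5.97), Ocln (2.83) and Abcg2 (2.12). Slco1a4 had the lowest level of all at P5, at 1.36 CPM per kb. By the edgeR quasi-likelihood test with Benjamini-Hochberg adjustment over 16916 genes, called below an adjusted p of 0.05, levels differed between the 9 ages for 8 of the 9 genes, against 76.8% of all genes tested. The exception was Ocln (adjusted p = 0.944). Over the 8 ages from 3 weeks on, 7 of the 9 were called, against 44.9% of all genes, and Abcb1a (adjusted p = 0.167) and Ocln (adjusted p = 0.924) were not. Without the 2-month libraries 5 were called over the ages from 3 weeks on, since Slc2a1 (adjusted p = 0.0517) and Abcg2 (adjusted p = 0.0996) no longer passed. Without the 24-month libraries 5 were called there too, with Slc2a1 at 0.0583 and Abcg2 at 0.0764, and Abcg2 (0.0677) was lost over all ages.

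**Figure D1:**
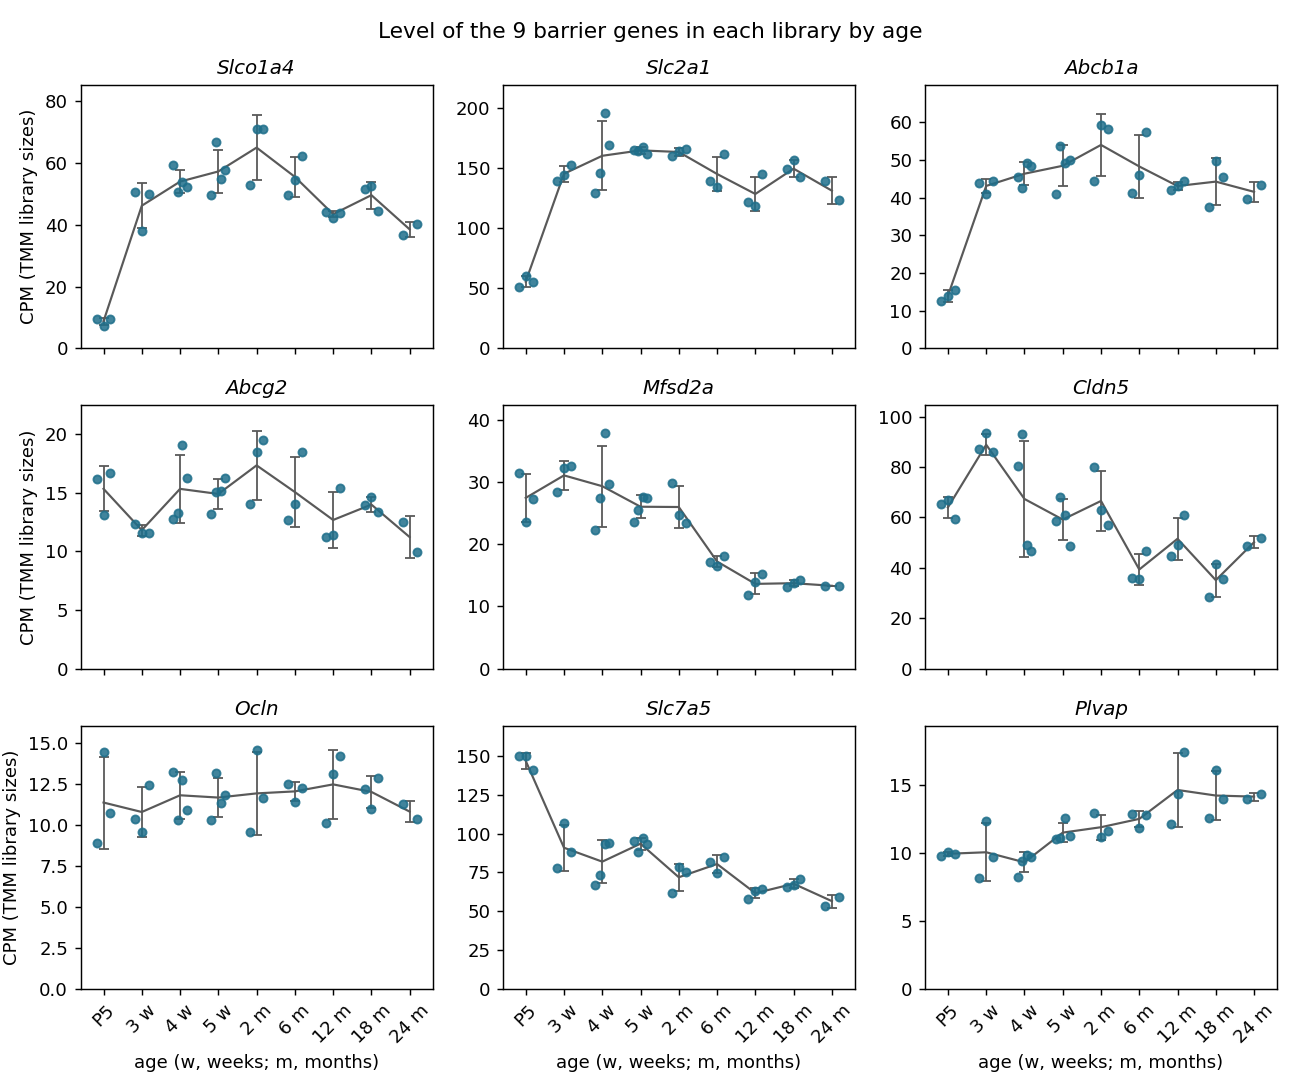
Level of each of the 9 genes (CPM on TMM library sizes, axes from 0) in each of 28 libraries by age. Points are libraries, the line joins the means and bars are 1 SD. Slco1a4, Slc2a1 and Abcb1a are lowest in the 3 P5 libraries, Slc7a5 is highest there, and Mfsd2a lies lower from 6 months on.

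Between P5 and 3 weeks the 3 transport genes Slco1a4, Slc2a1 and Abcb1a rose 5.29-fold, 2.62-fold and 3.09-fold, while the amino acid carrier Slc7a5 and the efflux pump Abcg2 fell. Mfsd2a, Cldn5, Ocln and Plvap did not pass the test. Age and the library differences in Bpifa2, Rn7s2 and title cannot be told apart here. The 5 called genes compare with 59.0% of all genes in this comparison, 29.8% higher and 29.3% lower, so the number of changes among the 9 was no larger than the background.

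Slco1a4, a carrier of organic anions such as bile acids, steroid conjugates and drugs, lies on the minus strand of chromosome 6 from 141805440 to 141856199 (GRCm38, GENCODE M21, as all gene positions here). Its levels were 9.43, 7.33 and 9.47 CPM in P5 replicates 1 to 3 and 50.6, 37.9 and 50.1 CPM in the 3 libraries of 3 weeks. The lowest of the 25 later libraries, at 36.7 CPM, was above the highest P5 library, and 39.9% of all genes were likewise without overlap between P5 and all later libraries. The log2 fold change was 2.40 ± 0.14 (SE; adjusted p = 2.74e-13), higher in 3 of 3 libraries. Of 50-base stretches of its transcripts, 1.61% are shared with Slco1a5 and Slco1a1.

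Slc2a1, which encodes the glucose carrier GLUT1 of brain endothelium and also of astrocytes, lies on the plus strand of chromosome 4 from 119108711 to 119137983. P5 libraries held 50.8, 60.2 and 55.4 CPM and those of 3 weeks 139, 144 and 152 CPM. Every later library held at least 118.7 CPM, so P5 stood apart, and the log2 fold change was 1.39 ± 0.11 (adjusted p = 7.92e-11). The antisense gene Gm12868 overlaps 105 bases of its exons and is not among the counted symbols.

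Abcb1a encodes P-glycoprotein, the main drug efflux pump of the endothelium, and lies on the plus strand of chromosome 5 from 8660077 to 8748575. It was counted at 12.4, 13.9 and 15.5 CPM at P5 and at 43.9, 41.1 and 44.3 CPM at 3 weeks. The log2 fold change was 1.63 ± 0.13 (adjusted p = 9.04e-11), and no later library, the lowest at 37.4 CPM, overlapped P5. Of the 50-base stretches of its transcripts 22.5% also occur in other transcripts, 16.3% in those of Abcb1b, so counts of this gene are less certain than those of the others.

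The bases upstream of the start sites of Slco1a4 and Slc2a1 are shown because these genes moved together between P5 and 3 weeks. The window of Abcb1a, which moved with them, is not printed because RefSeq places it at chr5:8566841-8567140, upstream of and apart from the GENCODE gene span given above. The windows are the 250 bases before the start given by RefSeq on GRCm38.p6, read on the gene's strand, at chr6:141856221-141856470 (minus strand) for Slco1a4 and chr4:119108495-119108744 (plus strand) for Slc2a1. Capitals mark matches to the motifs described after the sequences.
Slco1a4: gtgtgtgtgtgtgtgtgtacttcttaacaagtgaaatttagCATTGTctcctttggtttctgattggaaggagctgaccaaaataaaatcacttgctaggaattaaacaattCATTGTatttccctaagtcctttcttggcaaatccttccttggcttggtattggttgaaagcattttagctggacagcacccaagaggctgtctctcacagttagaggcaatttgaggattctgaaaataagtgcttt
Slc2a1: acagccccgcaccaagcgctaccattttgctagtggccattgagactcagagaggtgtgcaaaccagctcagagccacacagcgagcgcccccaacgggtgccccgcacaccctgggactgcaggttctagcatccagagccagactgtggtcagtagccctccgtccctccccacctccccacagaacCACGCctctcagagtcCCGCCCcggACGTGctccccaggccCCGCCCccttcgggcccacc
Motifs were searched as letters on both strands in windows of 300 bases, from 250 before to 50 after each start, of which 32851 are in the table and 10 belong to 7 of the members. The Slco1a4 window held 2 matches to a SOX core (ACAATG or ACAAAG, in 28.6% of all windows), both printed from the opposite strand, and none to the other motifs. It was 40.7% G and C with 1 CpG, whereas the median window is 52.7% G and C with 7 CpGs. The Slc2a1 window was 65.3% G and C with 18 CpGs and held a hypoxia-element core (ACGTG, 19.6% of windows), a xenobiotic-element core (GCGTG, 32.4%) and 2 KLF/SP cores (GGGCGG, 35.7%). Neither of these 2 windows held a TCF/LEF core (ATCAAAG or TTCAAAG, 8.65% of windows), an ETS core (CAGGAAG or CCGGAAG, 20.9%) or an E-box (CACGTG, 7.15%, which contains the hypoxia-element core). The hypoxia- and xenobiotic-element cores can overlap each other. The Abcb1a window held 2 TCF/LEF and 2 SOX cores. These matches describe the letters and show no binding.

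Slc7a5, the light chain of the large neutral amino acid carrier LAT1, which also serves growing cells outside the vasculature, lies on the minus strand of chromosome 8 from 121881150 to 121907694. It was counted at 150.0, 150.0 and 141 CPM at P5, above each of the 25 later libraries, whose highest was 107 CPM. At 3 weeks the libraries held 77.8, 107 and 88.0 CPM, and the log2 fold change was -0.69 ± 0.11 (adjusted p = 1.34e-05), lower in 3 of 3 libraries. Slc3a2, the heavy chain that pairs with Slc7a5 and was picked out after its values were seen, had a log2 fold change of 0.20 ± 0.06 (adjusted p = 0.00603) in the opposite direction.

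Abcg2, an efflux pump for drugs and urate (plus strand of chromosome 6, 58584523 to 58695676), was at 16.2, 13.1 and 16.7 CPM at P5 and 12.3, 11.5 and 11.5 CPM at 3 weeks. The groups did not overlap, as for 67.0% of all genes, and the log2 fold change was -0.38 ± 0.16 (adjusted p = 0.0475). This call was lost without either P5 replicate 1 (adjusted p = 0.112) or P5 replicate 3 (0.143) and without any of the 3-week replicates 1 (0.0650), 2 (0.0976) and 3 (0.105). It was also lost without the pair of Xist-holding P5 libraries (log2 fold change -0.51, adjusted p = 0.0636), while the calls of Slco1a4, Slc2a1, Abcb1a and Slc7a5 were kept there, with log2 fold changes of 2.28, 1.38, 1.47 and -0.64.

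Cldn5, the claudin that forms most of the endothelial tight junction strands, was at 65.5, 67.1 and 59.4 CPM at P5 and at 87.2, 93.5 and 85.8 CPM at 3 weeks. These libraries did not overlap, but the log2 fold change of 0.47 ± 0.20 missed the threshold (adjusted p = 0.0512). DESeq2 (adjusted p = 0.0418) and a fit on these 2 ages alone (adjusted p = 0.000277) called it. Mfsd2a (log2 fold change 0.18 ± 0.13), Ocln (-0.08 ± 0.16) and Plvap (0.01 ± 0.13) had adjusted p-values of 0.261, 0.7103 and 0.941.

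Among the other genes of the barrier, 16 of 22 further transporters were called between P5 and 3 weeks, 8 higher and 8 lower, with a median log2 fold change of 0.16 against -0.01 for all genes. Of all genes 59.0% were called, 29.8% higher and 29.3% lower, so the numbers called among the junction genes (8 of 14) and the Wnt genes (11 of 20) described next were no larger than the background. The 4 of smallest p were Abca2 (1.49 ± 0.07), the lipoprotein receptor gene Lrp8 (-1.78 ± 0.11), the thiamine carrier Slc19a3 (1.56 ± 0.19) and the cationic amino acid carrier Slc7a1 (-0.93 ± 0.12). Of 14 further junction genes 5 were higher, among them Jam3 (1.67 ± 0.08), Cldn12 (0.85 ± 0.08) and Pecam1 (0.68 ± 0.11), and 3 were lower. Of 20 genes of barrier Wnt signalling 10 were higher, including Ppard (0.98 ± 0.12), the endothelial transcription factor Sox17 (1.49 ± 0.19), and the feedback inhibitors Notum (0.86 ± 0.18) and Nkd1 (0.45 ± 0.10), and 1, Apcdd1 (-0.47 ± 0.13), was lower. Several of these genes, such as Abca2 and Jam3, are also expressed by other brain cells.

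Some other cell markers rose over the same interval, in which 29.8% of all genes were higher and 29.3% lower. Of 20 general endothelial genes 11 rose and 2 fell, with summed levels of 303 to 318 CPM at P5 and 379 to 383 CPM at 3 weeks. Astrocyte endfoot genes were higher in 8 of 10 cases and lower in 1, with sums of 1519 to 1583 CPM and then 3110 to 3476 CPM. Smooth muscle genes were higher in 4 of 6 (23.0 to 35.2, then 55.8 to 62.1 CPM) and red blood cell genes in 7 of 7 (123 to 165, then 472 to 835 CPM). No gene of these lists was at 0 in a library of these ages. Other lists did not rise in this way. Of 14 pericyte genes 4 were higher and 3 lower, and of 10 median eminence and tanycyte genes 3 were higher and 1 lower. Of 15 choroid plexus genes 1 was higher and 1 lower, of 8 pituitary genes 1 was higher, and of 11 fibroblast genes of the meninges 0 were called. The part of all these markers in the change of the barrier genes was not tested.

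**Figure D2:**
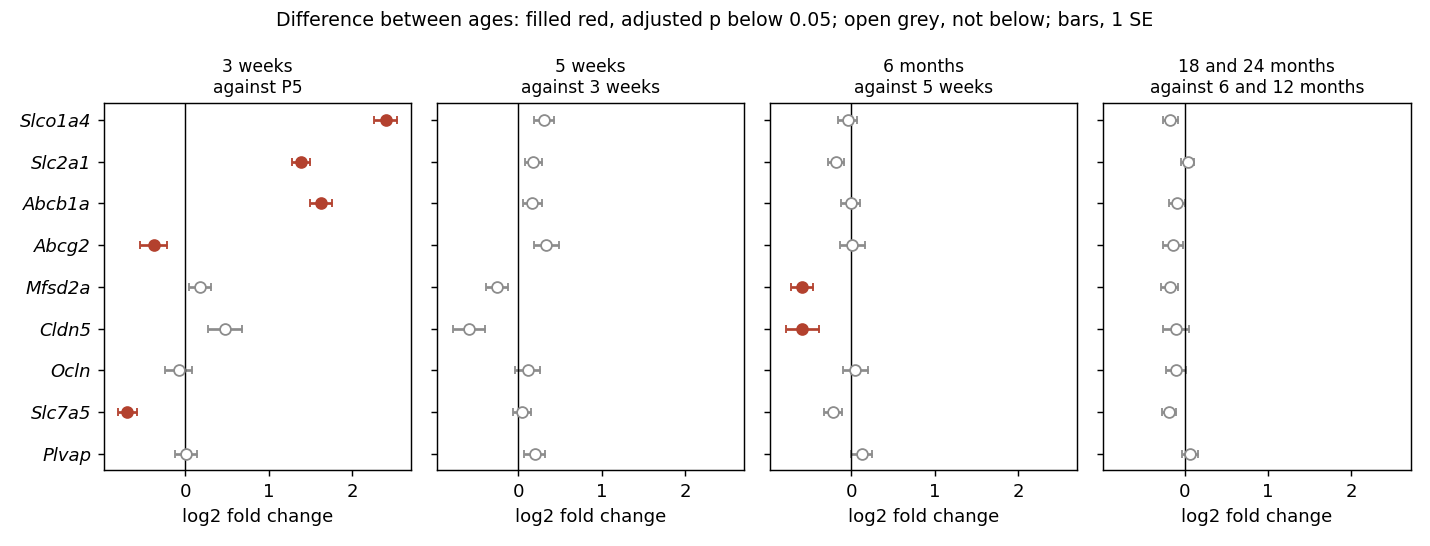
Log2 fold change of the 9 genes in 4 comparisons of ages, with bars of 1 SE. Filled red points have an adjusted p below 0.05 (edgeR): 5 genes for 3 weeks against P5, Mfsd2a and Cldn5 for 6 months against 5 weeks, and none in the other 2 comparisons.

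From 3 to 5 weeks, around puberty, no member was called by edgeR or by DESeq2, against 2.15% of all genes (0.698% higher and 1.45% lower). At an unadjusted p below 0.05 were Slco1a4, Abcg2 and Cldn5, 3 of 9, against 11.7% of all genes. Slco1a4 had a log2 fold change of 0.31 ± 0.12 (adjusted p = 0.256), Abcg2 of 0.34 ± 0.15 (adjusted p = 0.384) and Cldn5 of -0.59 ± 0.19 (adjusted p = 0.143). The fit on these 2 ages alone called Cldn5 (-0.58, adjusted p = 0.0154). None of 22 further transporters, 14 junction genes or 20 Wnt pathway genes was called, while 3 of 20 general endothelial genes, Kdr (-0.89 ± 0.15), Cd93 (-0.74 ± 0.13) and Cd34 (-0.33 ± 0.08), were lower. With the term for the library set described next, none of these 3 was called (-0.20, -0.36 and -0.13, with adjusted p-values of 0.857, 0.684 and 0.871).

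The Cldn5 difference followed the set of libraries defined by Rn7s2. Cldn5 was at 87.2, 93.5 and 85.8 CPM at 3 weeks and at 80.3 and 93.3 CPM in 4-week replicates 1 and 2, and at 49.2 and 46.5 CPM in 4-week replicates 3 and 4. The 5-week libraries held 58.7, 68.2, 61.0 and 48.7 CPM. Libraries of 1 age thus split as widely as 3 and 5 weeks do, and at 4 weeks the sets did not overlap. In a fit with a term for the set, the log2 difference of Cldn5 between the set with high Rn7s2 and the other was -0.86 ± 0.18 (adjusted p = 0.0431), a call made for 0.195% of all genes. This term comes from 4-week replicates 3 and 4 against 1 and 2, the same libraries as above. With that term the difference of 5 weeks from 3 weeks was 0.27 (adjusted p = 0.828). The same term was 0.41 ± 0.10 for Slc2a1, 0.44 ± 0.18 for Abcg2, 0.44 ± 0.14 for Mfsd2a and 0.42 ± 0.11 for Slc7a5, with adjusted p-values of 0.132 to 0.635. Red blood cell genes, 7 of 7 lower at 5 weeks than at 3 weeks, had summed levels of 472 to 835 CPM at 3 weeks and 125 to 216 CPM at 5 weeks, and their part in the Cldn5 values was not tested.

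**Figure D3:**
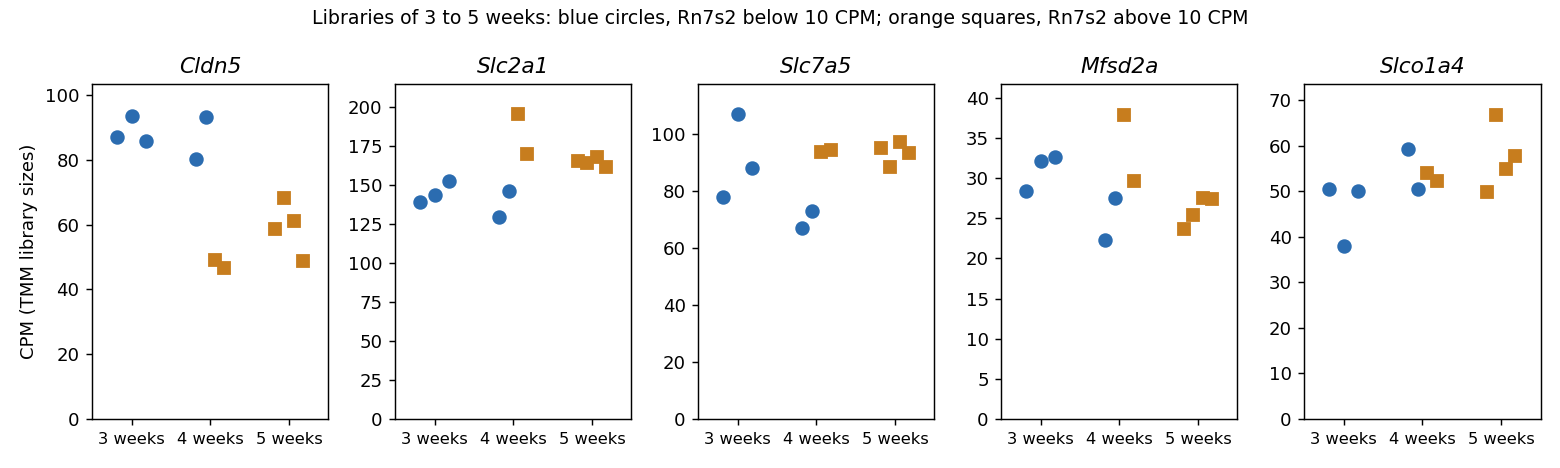
Level (CPM, axes from 0) of 5 of the genes in each library of 3, 4 and 5 weeks. Blue circles are libraries with Rn7s2 below 10 CPM and orange squares those above it. At 4 weeks Cldn5 is at 80.3 and 93.3 CPM in the circles and at 49.2 and 46.5 CPM in the squares.

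Between 5 weeks and 6 months Mfsd2a and Cldn5 fell, 2 of 9 genes against 13% of all genes (4.58% higher and 8.39% lower), and none rose. Mfsd2a carries docosahexaenoic acid as lysophosphatidylcholine into the brain and is known to keep vesicle transport across the endothelium low. It lies on the minus strand of chromosome 4 from 122946850 to 122961188. Its levels were 31.4, 23.6 and 27.3 CPM at P5, and 28.4, 32.2 and 32.6 CPM at 3 weeks. At 4 weeks they were 22.3, 27.5, 37.9 and 29.6 CPM, at 5 weeks 23.6, 25.5, 27.6 and 27.4 CPM, and at 2 months 29.9, 24.7 and 23.4 CPM. From then on they were lower: 17.1, 16.4 and 18.1 CPM at 6 months, 11.8, 13.9 and 15.1 CPM at 12 months, 13.2, 13.8 and 14.2 CPM at 18 months, and 13.3 and 13.3 CPM at 24 months.

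All 14 libraries from 3 weeks to 2 months, at 22.3 CPM or more, were above all 11 from 6 months on, at 18.1 CPM or less. Mfsd2a was the only member without overlap there, against 2.13% of all genes. This division of the ages was chosen after the values were seen. The log2 fold change from 5 weeks to 6 months was -0.60 ± 0.13 (adjusted p = 0.00373). With the term for the library set, to which all 5-week libraries belong, it was -0.16 (adjusted p = 0.718). Against ages outside that set, in comparisons also added after the values were seen, Mfsd2a at 6 months was -0.59 from 2 months (adjusted p = 0.0197) and -0.85 from 3 weeks (adjusted p = 6.24e-05).

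Cldn5 lies on the plus strand of chromosome 16 from 18776847 to 18778262. Against the 48.7 to 68.2 CPM of 5 weeks it was at 35.8, 35.7 and 46.5 CPM at 6 months, with no overlap, as for 30.7% of all genes. The log2 fold change was -0.59 ± 0.20 (adjusted p = 0.0499). This call sat at the threshold: it was lost without any of 5-week replicates 1 (0.0875), 2 (0.115) and 3 (0.101) and 6-month replicates 32 (0.162) and 33 (0.168), and with DESeq2 size factors in edgeR (0.0527), upper-quartile scaling (0.0657) and no filter on low counts (0.0727). With the term for the library set it was -1.45 (adjusted p = 0.000874), a larger fall, whereas Mfsd2a was not called there. Against 2 months the log2 fold change at 6 months was -0.76 (adjusted p = 0.0440) and against 3 weeks -1.18 (adjusted p = 0.000223). Later ages did not stay low: Cldn5 was at 44.8, 48.9 and 60.9 CPM at 12 months, 28.3, 41.4 and 35.7 CPM at 18 months, and 48.5 and 51.8 CPM at 24 months.

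The sequences before the starts of the genes that fell are given for comparison with those above, at chr4:122961189-122961438 (minus strand) for Mfsd2a and chr16:18776597-18776846 (plus strand) for Cldn5, from the same source and with the same motifs in capitals.
Mfsd2a: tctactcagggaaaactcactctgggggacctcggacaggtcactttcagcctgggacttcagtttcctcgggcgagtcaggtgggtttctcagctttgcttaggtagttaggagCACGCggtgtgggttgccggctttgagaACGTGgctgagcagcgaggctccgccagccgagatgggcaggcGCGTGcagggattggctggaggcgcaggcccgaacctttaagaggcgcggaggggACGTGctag
Cldn5: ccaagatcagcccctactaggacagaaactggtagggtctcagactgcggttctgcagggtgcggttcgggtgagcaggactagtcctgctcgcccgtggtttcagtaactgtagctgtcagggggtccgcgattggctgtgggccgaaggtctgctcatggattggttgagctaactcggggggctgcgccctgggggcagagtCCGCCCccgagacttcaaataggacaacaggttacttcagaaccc
The Mfsd2a window held 2 hypoxia-element and 2 xenobiotic-element cores and was 60.3% G and C with 22 CpGs. The Cldn5 window held 1 KLF/SP core and was 58.3% G and C with 12 CpGs. Of the 10 windows of members, 1, that of Abcb1a, held TCF/LEF cores, at the RefSeq start that lies apart from the GENCODE span, and the motifs that these 4 windows hold occur in 19.6% to 35.7% of all windows.

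With 2 months in place of 6 months, Mfsd2a (-0.00, adjusted p = 0.993) and Cldn5 (0.17, adjusted p = 0.600) were not called against 5 weeks, and 1 gene, Slc7a5, was called instead (-0.38, adjusted p = 0.0185). Slc7a5 was at 95.2, 88.3, 97.1 and 93.4 CPM at 5 weeks and at 61.9, 78.5 and 75.2 CPM at 2 months, then at 81.7, 74.4 and 85.2 CPM at 6 months. The 2-month libraries are those lowest in Avp, and their Oxt levels were as low as those of P5. Of other barrier genes at 6 months against 5 weeks, 6 of 20 Wnt pathway genes were lower and none higher, against 8.39% of all genes lower, with a median log2 fold change of -0.20 against 0.01 for all genes. They were Nkd1 (-0.59 ± 0.10), Apcdd1 (-0.71 ± 0.12), the forkhead factors Foxf2 (-0.74 ± 0.17) and Foxq1 (-0.64 ± 0.18), Notum (-0.57 ± 0.17) and Sox17 (-0.53 ± 0.17), the last 2 named after their values were seen. With the term for the library set 4 of the 20 were lower, against 1.66% of all genes: Apcdd1 (-1.11), Notum (-1.29), Nkd1 (-0.79) and Foxq1 (-1.09). Against 3 weeks 7 were lower and 1 higher (15.8% and 12.3% of all genes), but against 2 months 1 was lower and none higher (1.83% and 1.77%), and none of the 6 passed, with Apcdd1 at -0.13 and Nkd1 at -0.32 (adjusted p = 0.596 and 0.0804). Of 14 junction genes Jam3 (-0.40 ± 0.08) and Ctnnb1 (-0.33 ± 0.07) were lower. Of 22 transporters the taurine carrier Slc6a6 was higher (0.48 ± 0.11), and Slc3a2 (-0.22 ± 0.06) and Abca2 (-0.20 ± 0.07) were lower. With the set term none of these 5 was called. Of 20 general endothelial genes 1, Tie1 (-0.45 ± 0.12), was lower (adjusted p = 0.0949 with the set term). Their sums were 306 to 347 CPM at 5 weeks and 287 to 359 CPM at 6 months, which overlap. With the set term 2 of the 20 were lower, against 1.66% of all genes. Against 3 weeks, with sums of 379 to 383 CPM at that age, 11 were lower and 0 higher (15.8% and 12.3% of all genes). Against 2 months 0 were lower and 0 higher (1.83% and 1.77%).

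Along the adult ages from 2 to 24 months, Slco1a4 and Mfsd2a fell, 2 of 9 genes against 7.43% of 16633 genes (3.08% rising and 4.35% falling), and none rose. The fitted change over 22 months was -0.63 ± 0.14 for Slco1a4 (adjusted p = 0.0146), a fold of 0.646, and -0.92 ± 0.17 for Mfsd2a (adjusted p = 0.00831), a fold of 0.529. Slco1a4 was at 52.8, 71.2 and 71.1 CPM at 2 months, 49.7, 54.5 and 62.5 CPM at 6 months, and 44.2, 42.3 and 43.9 CPM at 12 months. It was at 51.8, 52.5 and 44.6 CPM at 18 months and at 36.7 and 40.3 CPM at 24 months. The 24-month libraries were below all other adult ones, and the next in order of mean was 12 months, which did not overlap 24 months.

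The Slco1a4 trend was lost without 2-month replicate 12 (adjusted p = 0.0501) or 13 (0.0501) or 24-month replicate 2 (0.0524). Without the 2-month libraries no gene at all was called, and the slopes per month were -0.02 for both Slco1a4 (adjusted p = 0.371) and Mfsd2a (adjusted p = 0.335), against -0.03 and -0.04 with them. Without the 24-month libraries, which stood apart in Rn7s2, Mfsd2a was called (-0.06 per month, adjusted p = 0.0213) and Slco1a4 was not (-0.03, adjusted p = 0.0881). Changes over 22 months that did not pass were -0.34 ± 0.13 for Abcb1a (adjusted p = 0.105), -0.51 ± 0.17 for Abcg2 (0.0719), -0.36 ± 0.11 for Slc7a5 (0.0645) and 0.29 ± 0.13 for Plvap (0.166). Those of Slc2a1 (-0.21 ± 0.11), Cldn5 (-0.43 ± 0.25) and Ocln (-0.09 ± 0.14) did not pass either. DESeq2 called 4 of the 9, adding Abcg2 (adjusted p = 0.0328) and Slc7a5 (adjusted p = 0.0293).

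The libraries of 18 and 24 months compared with those of 6 and 12 months gave no called member by edgeR or DESeq2, against 0.0296% of all genes. At an unadjusted p below 0.05 there was 1, Slc7a5 (log2 fold change -0.19 ± 0.09, adjusted p = 0.748), against 6.54% of all genes. The fold changes of the 9 lay between -0.19 and 0.07, with SE of 0.08 to 0.16.

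Among the lists, genes that fell over adult age were 6 of 20 general endothelial genes, 8 of 14 pericyte genes, 4 of 6 smooth muscle genes, 6 of 10 astrocyte endfoot genes, 5 of 20 Wnt pathway genes, 4 of 22 transporters, 4 of 11 fibroblast genes of the meninges and 1 of 14 junction genes, against 4.35% of all genes, and none of these lists held a gene that rose. Without the 24-month libraries, where 2.72% of all genes fell, the counts in this order were 3, 1, 3, 3, 4, 1, 1 and 1. Without the 2-month libraries each was 0. The 6 general endothelial genes included Tal1 (-2.57 over 22 months). It was at 12.6 to 13.8 CPM in the 2-month libraries and 1.82 to 2.61 CPM at 24 months. The 2-month libraries were also those lowest in Avp, and which cells held the Tal1 RNA was not tested. The 6 is thus a count of listed genes and not a measure of endothelial cells. The transporters were the transferrin receptor Tfrc (-0.37 over 22 months), Slc22a8 (-0.94), Abca2 (-0.27) and the monocarboxylate carrier Slc16a1 (-0.44). The Wnt pathway genes of smallest p were Apcdd1 (-0.77), Ppard (-0.57), Tnfrsf19 (-0.47) and the ligand Wnt7a (-0.68). Of 14 tested genes of caveolae, leaky or activated endothelium, Lcn2 rose (4.56 over 22 months) and none fell. In single libraries of 2, 6 and 18 months up to 2 genes of this list were at 0, and at 24 months 0 were. For 18 and 24 months against 6 and 12 months Lcn2 was not called by edgeR (2.71 ± 0.93, adjusted p = 0.532). Without the 24-month libraries none of 12 tested genes of that list was called. Summed pericyte levels were 365 to 407 CPM at 2 months and 217 to 281 CPM at 24 months, and general endothelial sums were 321 to 380 CPM and then 282 to 287 CPM, with no gene of either list at 0. Their part in the fall of Slco1a4 and Mfsd2a was not tested.

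Plvap, which forms the diaphragms of fenestrae and caveolae and lies on the minus strand of chromosome 8 from 71497765 to 71511752, changed over the ages from 3 weeks on (adjusted p = 0.000786) although no comparison of ages called it. Its libraries held 8.12, 12.3 and 9.64 CPM at 3 weeks, 8.20, 9.42, 9.82 and 9.71 CPM at 4 weeks, and 11.02, 11.1, 12.6 and 11.2 CPM at 5 weeks. They held 12.9, 11.1 and 11.6 CPM at 2 months, 12.9, 11.8 and 12.8 CPM at 6 months and 12.1, 14.3 and 17.4 CPM at 12 months. At 18 months they held 12.5, 16.1 and 13.9 CPM and at 24 months 13.9 and 14.3 CPM. The means of 12, 18 and 24 months were the highest, at 14.6, 14.2 and 14.1 CPM, and that of 4 weeks, at 9.29 CPM, the lowest. Median eminence and tanycyte markers, 10 genes, had a mean log2 level that was likewise higher at the later ages: 2.73, 2.78 and 2.72 at 3, 4 and 5 weeks, 2.68 at 2 months, 3.08 at 6 months, 3.30 at 12 months, 3.32 at 18 months and 3.17 at 24 months. Their sums overlapped, at 111 to 169 CPM at 4 weeks and 134 to 192 CPM at 24 months. Of these 10 genes 1 rose over adult age, the tanycyte transcription factor gene Rax (2.40 over 22 months, adjusted p = 0.0115), and 1 fell, the deiodinase gene Dio2 (-1.59, adjusted p = 0.00436). Choroid plexus markers, 15 genes, summed to 279 to 7201 CPM at 12 months and 1633 to 4859 CPM at 18 months, against 325 to 327 CPM at 24 months and 338 to 364 CPM at 4 weeks. The part of these markers in the Plvap values was not tested.

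Ocln, the occludin gene (minus strand of chromosome 13, 100496507 to 100552718), had mean levels of 10.8 to 12.5 CPM at all 9 ages and single libraries of 8.93 to 14.6 CPM. No neighbouring ages in the order of its means were separated. Its ratio of highest to lowest age mean was 1.16, the smallest of the 9 genes, against 7.44 for Slco1a4, 3.87 for Abcb1a and 2.97 for Slc2a1. Its log2 fold changes in the 4 comparisons of ages lay between -0.10 and 0.11, with SE of 0.12 to 0.16.

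After 3 weeks Slc2a1 kept means of 128 to 165 CPM and Abcb1a of 41.5 to 54.0 CPM. Slc2a1 was highest at 5 weeks (164.6 CPM) and lowest at 12 months (128 CPM), with no separation between neighbours in the order of means. Its difference between the 8 later ages (adjusted p = 0.0345) was lost with upper-quartile scaling (0.0851), and that of Abcg2 (0.0402) with it too (0.0506). Leaving out 12-month replicate 27 raised the adjusted p of Slc2a1 to 0.0806, and leaving out 2-month replicate 13 raised that of Abcg2 to 0.0907. Abcb1a was at 44.5, 59.3 and 58.2 CPM at 2 months, where its mean was highest, and at 39.7 and 43.4 CPM at 24 months, where it was lowest after P5.

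Relative to the mean log2 level of 20 general endothelial genes in the same library, the members had different courses. That mean was 3.55 at P5, 3.89 at 3 weeks and at 2 months, and 3.41 at 24 months. Slco1a4 stood at -0.42 ± 0.20 (SD, n = 3) on this log2 scale at P5, 1.63 ± 0.22 at 3 weeks and between 1.85 and 2.19 from 4 weeks on. Its adult values on this scale were 2.12 ± 0.14 at 2 months, 2.19 ± 0.20 at 18 months and 1.85 ± 0.10 (n = 2) at 24 months. The means of 2 and 18 months lay within 1 SD of each other, and the high Tal1 level enters the 2-month value, so their order is not settled. Abcb1a stood at 0.25 ± 0.16 at P5, 1.55 ± 0.04 at 3 weeks and 1.86 to 2.02 later. Slc2a1 went from 2.24 ± 0.13 to 3.29 ± 0.05 and stayed between 3.45 and 3.78.

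Mfsd2a was lower at later ages on this scale too, from 1.07 ± 0.10 at 3 weeks and 1.03 ± 0.14 at 5 weeks to 0.49 ± 0.17 at 6 months and 0.21 to 0.34 after that, with no overlap between the libraries of 3 to 5 weeks and those of 6 months on, as for 3.41% of all genes. With 2 months among the younger ages the groups overlapped on this scale, unlike on the CPM scale, and 1.09% of all genes were separated. The overlap was small (lowest 0.58 at 2 months, highest 0.59 at 6 months), and the 2-month reference holds the high Tal1 level. Plvap was higher on this scale at later ages, though not in steady steps. It stood at -0.23 ± 0.03 at P5, -0.58 ± 0.31 at 3 weeks, -0.46 ± 0.18 at 4 weeks, -0.15 ± 0.11 at 5 weeks and -0.32 ± 0.22 at 2 months. Later it was at 0.03 ± 0.20 at 6 months, 0.31 ± 0.09 at 12 months, 0.38 ± 0.03 at 18 months and 0.41 ± 0.04 (n = 2) at 24 months. Every library of 12 months or older, at 0.21 or more, was above every younger one, whose highest was 0.17 at 6 months, as for 0.384% of all genes. Both divisions of the ages were chosen after the values were seen. These relative levels are descriptions with no test.

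**Figure D4:**
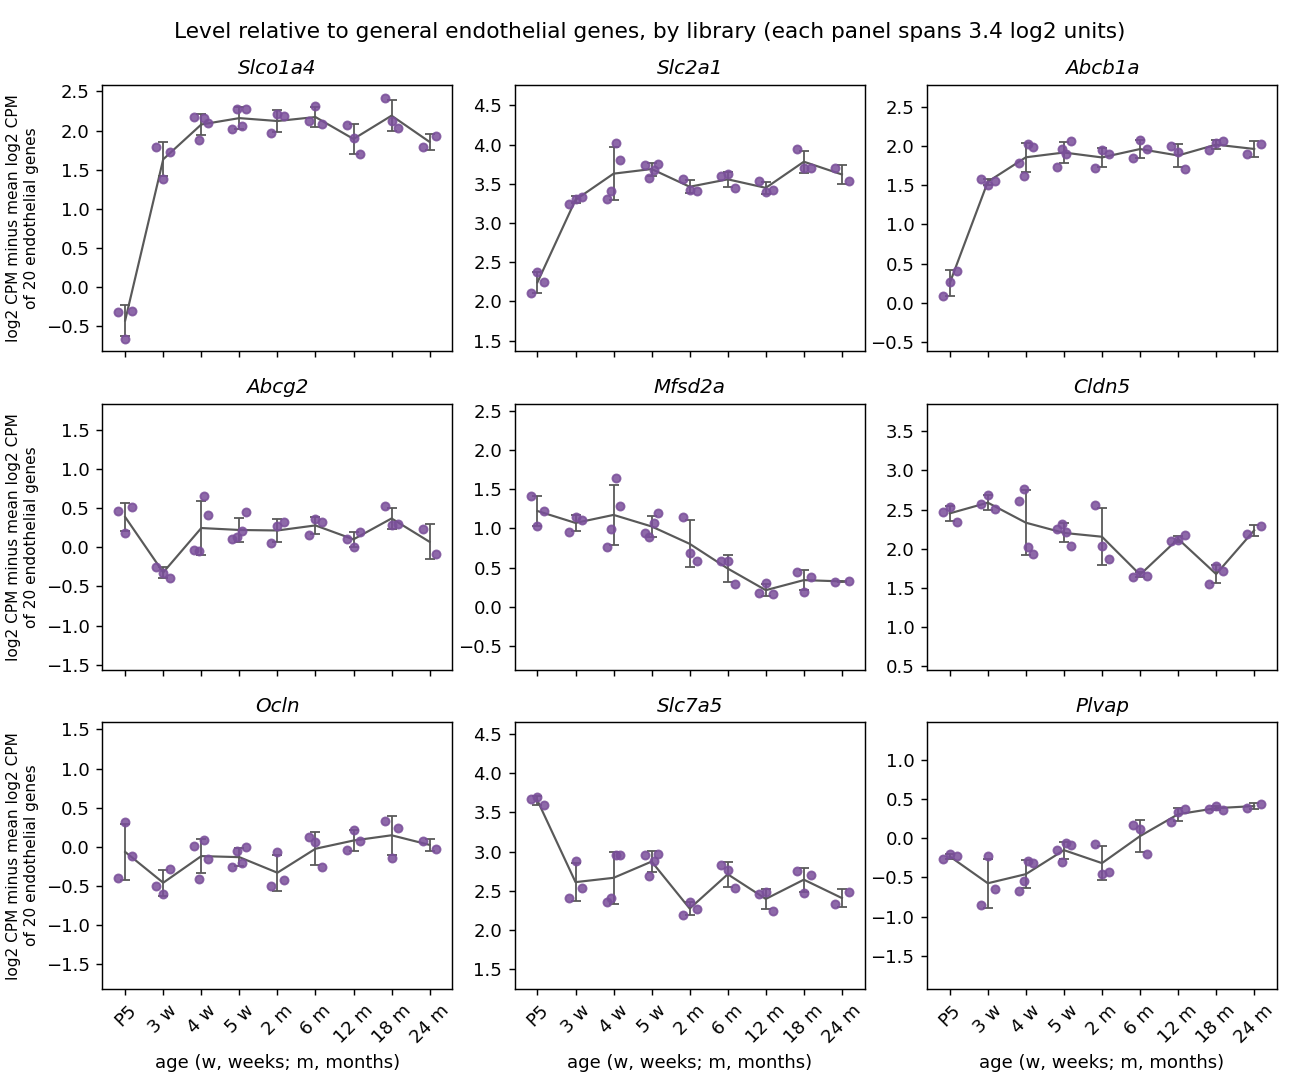
Log2 CPM of each gene minus the mean log2 CPM of 20 general endothelial genes, by library and age. Each panel spans the same number of log2 units, the line joins means and bars are 1 SD. Slco1a4, Slc2a1 and Abcb1a climb from P5 and then stay level, Mfsd2a declines until 12 months, and Plvap is lowest at 3 weeks and highest, at 0.41, at 24 months.

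Over the 25 libraries from 3 weeks on, the members varied together in part, given here as Pearson correlations of log2 CPM with no test, since libraries share age and depth. The efflux pump Abcb1a went with Slco1a4 (r = 0.791) and Abcg2 (r = 0.768), and Abcg2 with Slc2a1 (r = 0.795). Mfsd2a went with Slc7a5 (r = 0.739) and against Plvap (r = -0.662). Cldn5 went with the endothelial mean (r = 0.747) and the Wnt list mean (r = 0.743), with the red blood cell mean (r = 0.713) and less with the other members, at most 0.655 for Mfsd2a. Other members went with list means too. Mfsd2a went with the means of the Wnt (r = 0.785), astrocyte endfoot (0.736) and pericyte (0.719) lists, and Slc7a5 with the Wnt mean (0.688). Abcb1a (r = 0.791) and Slco1a4 (0.735) went with the smooth muscle mean, and Plvap went against the Wnt mean (-0.542).

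Among 13841 genes that averaged 1 CPM or more, the closest in pattern to Mfsd2a were Cldn11, the claudin of myelin (r = 0.956), Fa2h, which makes hydroxylated myelin lipids (r = 0.947), and Gamt of creatine synthesis (r = 0.947). Cldn5 was closest to the fatty acid-binding protein gene Fabp7 (r = 0.906), Rhoc (r = 0.894) and the endothelial receptor gene Cd93 (r = 0.888). The highest were Uap1l1 for Plvap (r = 0.886), Fam43a for Slc7a5 (r = 0.876), Plekhf1 for Slc2a1 (r = 0.864), Usp53 for Abcg2 (r = 0.835), Kcna1 for Slco1a4 (r = 0.828), Clec16a for Abcb1a (r = 0.800) and Ecm2 for Ocln (r = 0.770). With the P5 libraries added, the correlation of Mfsd2a with Cldn11 was 0.206, while that of Slco1a4 with Kcna1 was 0.967. High values are the top of many candidates over few libraries, and say nothing of shared control.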

How the data were processed

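The submitters' processing notes name the aligner HISAT2 2.1.0, the counter HTSeq 0.9.1 and the build mm10 (GRCm38). The authors deposited raw counts per gene symbol, 1 file per library. The annotation, strand setting and trimming were not given in the sources used here. Overlapping genes and near-identical copies are therefore uncertain. The 5 HTSeq summary lines (26.1 to 32.5% of each total) were removed. The partial 24-month library, with fewer than 5000 genes counted, was left out, which leaves 28 of 29. Depth is given in the report, and floors of 3 counts cover counting error only.

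CPM used TMM library sizes (edgeR 4.0.16, R 4.3.3), and log2 values a prior count of 1. The main test was edgeR's robust quasi-likelihood fit with 1 mean per age over 28 libraries, after filterByExpr by age. The adult trend was the slope per month over 14 libraries of 2 to 24 months. P-values were two-sided, adjusted by Benjamini-Hochberg over all genes tested, and called below 0.05. They measure the spread between libraries read as separate mice. The fits were tested on simulated counts. Errors after ± are 1 SE for fold changes and 1 SD between libraries for levels. DESeq2 1.42.0, other scalings, no filter, all 29 libraries, each library left out in turn, a replicate block and others were alternatives. Chosen after seeing the data were the library-set term for 6 months, 2 months or 3 weeks in place of 5 weeks, the tests over ages without 2 months, and those over ages and the trend without 24 months.

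Lengths are of merged GENCODE M21 exons. Promoter windows are RefSeq's on GRCm38.p6, and 7 members matched (not Slc7a5 or Plvap). The members, 13 other lists (167 of 172 entries found) and comparisons were chosen with earlier results of these data known. Named were all members, up to 4 called genes of smallest p per list, and the 3 genes most like each member. One gene that this rule names is not reported here.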

Additional observations from a re-analysis of the deposited data

Results flagged for a closer look

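The level of Plvap in 5-week replicate 3, at 12.6 CPM, stood apart from the other 3 libraries of 5 weeks, which lay close together at 11.02 to 11.2 CPM. The difference was small beside the spread at 12 months, at 12.1 to 17.4 CPM. Of the groups of 4 libraries, 18 (each member at 4 and at 5 weeks) were examined for such a gap, and chance marks about 1 in 20 of them.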

How the results depend on the processing

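The number of members called was 8 of 9 over the 9 ages and 7 over the later 8, 5 for 3 weeks against P5, 0 for 5 against 3 weeks, 2 for 6 months against 5 weeks, 0 for old against middle-aged adults and 2 for the adult trend. Leaving out each library in turn gave 7 to 8, 5 to 8, 4 to 5, 0 to 0, 1 to 2, 0 to 0 and 1 to 3. With all 29 libraries the counts for the 9 ages, the 8 ages and the trend were each 0, and 484, 63 and 0 of all genes were called, since the partial library holds few genes. For 6 months against 5 weeks, DESeq2 size factors, upper-quartile scaling, no filter, the set term and 2 months in place of 6 each gave 1. The fit on 2 ages alone gave 1 for 5 against 3 weeks, DESeq2 gave 4 for the trend, and the trend gave 0 without 2 months and 1 without 24 months. Counts over all genes moved by over 1.5 times in these: DESeq2 called 2027 for the trend (1236 in edgeR) and 41 for old adults (5), 18 against 12 months called 0, the trend without 24 months 764 (0 without 2 months), the set term 20 for 5 against 3 weeks (363) and 426 for 6 months (2193), and 6 months against 2 months or 3 weeks 608 and 4754.

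Same-numbered libraries did not deviate together (r = 0.0416, 0.131 and 0.0535 for P5 and 3 weeks, and -0.125, -0.209 and -0.119 for 3 and 5 weeks), so the numbers share only a name. With the replicate block, 231 of all genes were called for 5 against 3 weeks, Abcg2 at 3 weeks against P5 had -0.37 (adjusted p = 0.0512) and Cldn5 had 0.48 (adjusted p = 0.0175), with 5 and 0 members called.

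Signs that turned belong to members that were not called, except Cldn5. Upper-quartile scaling gave Plvap -0.026 (3 weeks against P5) and Abcb1a 0.033 (6 months). All 29 libraries gave Slc2a1 -0.26 and Plvap -0.22 for old adults and Plvap -0.0082 per month. The set term gave Slc2a1 -0.23, Abcg2 -0.10, Cldn5 0.27 and Slc7a5 -0.38 at 5 weeks, and Slc2a1 0.22, Abcb1a 0.15 and Slc7a5 0.21 at 6 months. With 2 months in place of 6, Slco1a4 had 0.18, Abcb1a 0.16 and Cldn5 0.17. In place of 5 weeks, 2 months gave Abcg2 -0.21 and Slc7a5 0.16, and 3 weeks gave Slco1a4 0.26 and Abcb1a 0.16. For 18 against 12 months alone, Slco1a4 had 0.19, Abcb1a 0.039, Abcg2 0.14, Mfsd2a 0.014, Slc7a5 0.14 and Plvap -0.040. Without 2 months the Cldn5 slope was 0.0064 per month, and without 24 months that of Ocln was 0.0019. Leaving out each library in turn gave, for 3 weeks against P5, Ocln -0.22 to 0.13 and Plvap -0.16 to 0.14, and for 5 against 3 weeks Slc7a5 -0.059 to 0.17. For 6 months it gave Slco1a4 -0.14 to 0.036, Abcb1a -0.15 to 0.095, Abcg2 -0.16 to 0.12 and Ocln -0.0087 to 0.11. For the trend it gave Ocln -0.0086 to 8.69e-05 per month, and for old adults Slc2a1 -0.0092 to 0.086. The cause of these changes was not tested. Depth limits none of the 9 genes, and the 2 libraries at 24 months limit that age.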
